A study of Homo sapiens with 16 samples.

Results

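The genes described here encode the machinery that copies DNA in S phase. They were taken by gene symbol from a list of 47, each of which was found once among the 60623 genes in the files. RNA-Seq was done in 16 libraries of MUTZ-3, a human acute myeloid leukemia (AML) line with inv(3), the rearrangement that places the oncogene *EVI1* under a hijacked enhancer. In the PARPi experiment, cells were left untreated (0 h) or received a PARP inhibitor, olaparib at 10 µM or talazoparib at 1 µM, or the DMSO vehicle alone, for 12, 24 or 48 h. PARP1 is a repair enzyme that senses DNA breaks. In the knockdown experiment, cells carried a pLKO.1 lentivirus with a non-targeting control (NTC), shEVI1-2531 or shEVI1-2532, were selected with puromycin and were harvested at day 3 or day 6. All cells grew with serum, GM-CSF and medium conditioned by the bladder line 5637, and each of the 16 conditions has 1 library, with no statement on separate cultures. The doses of the inhibitors differ, both inhibitors share the same DMSO libraries, and both shRNAs share the same NTC libraries.

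DNA replication starts at origins that were licensed in G1, when the origin recognition complex, *CDC6* and *CDT1* load the *MCM2* to *MCM7* ring onto DNA. In S phase this ring is activated as a helicase by *CDC45* and the GINS complex, polymerases copy the strands behind a sliding clamp, and single-stranded DNA is held by RPA. Many of these genes are transcribed from late G1 on by E2F factors, so their transcripts are commonly read as a sign of cycling cells. In bulk RNA, fewer cells in S phase and less RNA per cell cannot be told apart.

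The 47 genes were ordered by role. Licensing comprised *ORC1*, *ORC6*, *CDC6*, *CDT1* and the *CDT1* inhibitor *GMNN*, and the helicase core comprised *MCM2* to *MCM7*. Helicase activation comprised *MCM10*, *CDC45* and *GINS1* to *GINS4*. The polymerases were represented by *POLA1*, *POLA2*, *PRIM1*, *PRIM2*, *POLD1*, *POLD3*, *POLE* and *POLE2*, and the clamp and its loaders by *PCNA*, *RFC2* to *RFC5* and *DSCC1*. The remaining roles were RPA (*RPA1*, *RPA2*, *RPA3*), fork protection and replication-coupled destruction (*TIPIN*, *TIMELESS*, *CLSPN*, *DTL*), nucleotide synthesis (*RRM1*, *RRM2*, *TYMS*, *TK1*, *DUT*), and histone supply and chromatin (*SLBP*, *CHAF1A*, *CHAF1B*, *ATAD2*).

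Promoter sequence is given first, as background to genes that are often described as a shared target set of E2F. RefSeq promoter windows of GRCh38.p14, from 250 bases before to 50 bases after the start of a gene, were found for 39 of the 47 genes, without *MCM4*, *MCM5*, *RPA2*, *RPA3*, *POLD3*, *GINS4*, *ATAD2* and *DSCC1*. The E2F consensus was searched for only as TTTNNCGC on either strand, with any base allowed at each N. This pattern was held by a window of 23 of these 39 genes (59.0%), against 8.23% of all 27305 genes with a window. By window, it was held by 43.4% of 53 windows of the replication genes and by 6.89% of all 35116 windows. The NF-Y element CCAAT was held by 25 of the 39 genes, or 56.6% of their windows against 34.6% of all windows. The CHR element TTTGAA, known from genes of the late cell cycle, was held by 2 of the 39 genes, or 3.77% of their windows against 15.2% of all windows. A match describes these letters only, and none of the windows was assayed for factor binding.

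The windows below run 5′ to 3′ on the strand of the gene, with each match to TTTNNCGC on either strand in capitals. The helicase genes *MCM6* (minus strand, chr2:135876394-135876693) and *MCM3* (minus strand, chr6:52284693-52284992) are shown because they held the most matches, 4 and 3. In *MCM6* the matches formed overlapping pairs on opposite strands, starting at -152 and -148 and again at -90 and -86 from the gene's start. *CDT1* (plus strand, chr16:88803539-88803838), *POLA1* (plus strand, chrX:24693668-24693967) and *DTL* (plus strand, chr1:212035498-212035797) are shown as the genes of their roles whose PARPi effect fell the most with time, with 2, 1 and 1 matches. *MCM10* (plus strand, chr10:13161308-13161607) is shown because it had the lowest slope of the 47 genes, averaged over both inhibitors, and held no match to TTTNNCGC. The windows of *MCM10*, *CDT1* and *DTL* also contain tttggcgg, which differs from the searched letters in the last base only and was not counted.
MCM6: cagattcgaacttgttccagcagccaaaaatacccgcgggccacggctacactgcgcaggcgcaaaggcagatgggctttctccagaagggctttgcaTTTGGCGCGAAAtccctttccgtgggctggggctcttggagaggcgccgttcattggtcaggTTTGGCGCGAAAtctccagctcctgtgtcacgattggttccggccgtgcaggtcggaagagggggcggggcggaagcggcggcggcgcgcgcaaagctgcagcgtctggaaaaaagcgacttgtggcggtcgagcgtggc
MCM3: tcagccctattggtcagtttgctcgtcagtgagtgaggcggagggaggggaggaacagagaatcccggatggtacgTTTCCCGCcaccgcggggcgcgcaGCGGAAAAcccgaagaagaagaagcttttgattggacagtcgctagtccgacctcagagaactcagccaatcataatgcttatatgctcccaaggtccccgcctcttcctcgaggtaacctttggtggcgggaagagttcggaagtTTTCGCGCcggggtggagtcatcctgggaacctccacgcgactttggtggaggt
CDT1: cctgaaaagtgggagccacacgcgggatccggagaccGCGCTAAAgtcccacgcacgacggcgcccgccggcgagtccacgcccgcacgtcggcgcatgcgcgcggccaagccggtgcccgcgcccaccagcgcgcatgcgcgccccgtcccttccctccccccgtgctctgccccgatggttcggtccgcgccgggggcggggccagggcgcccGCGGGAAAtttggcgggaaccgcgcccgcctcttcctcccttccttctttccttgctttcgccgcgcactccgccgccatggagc
POLA1: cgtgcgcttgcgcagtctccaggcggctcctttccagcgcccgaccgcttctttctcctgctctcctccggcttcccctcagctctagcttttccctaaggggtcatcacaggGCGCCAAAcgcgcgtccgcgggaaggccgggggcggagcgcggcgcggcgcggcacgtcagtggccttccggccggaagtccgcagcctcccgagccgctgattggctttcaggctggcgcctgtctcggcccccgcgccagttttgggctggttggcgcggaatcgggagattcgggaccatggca
DTL: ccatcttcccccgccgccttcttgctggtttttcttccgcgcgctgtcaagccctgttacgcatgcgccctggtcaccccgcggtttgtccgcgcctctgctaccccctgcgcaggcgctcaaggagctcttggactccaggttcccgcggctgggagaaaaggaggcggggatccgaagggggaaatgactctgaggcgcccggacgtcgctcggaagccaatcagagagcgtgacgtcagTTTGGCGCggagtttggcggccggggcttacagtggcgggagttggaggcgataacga
MCM10: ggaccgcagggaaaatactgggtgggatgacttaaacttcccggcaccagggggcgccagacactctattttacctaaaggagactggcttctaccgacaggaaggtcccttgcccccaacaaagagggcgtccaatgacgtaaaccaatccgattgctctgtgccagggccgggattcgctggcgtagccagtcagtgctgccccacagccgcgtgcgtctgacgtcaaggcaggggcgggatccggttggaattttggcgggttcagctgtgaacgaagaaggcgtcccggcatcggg

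The slopes, the change of the log2 ratio to DMSO for each doubling of the hours averaged over both inhibitors, were also read by motif, with no test. Their median was -0.92 in the 23 genes with a match to TTTNNCGC and -0.92 in the 16 without, some of which hold near matches. For CCAAT the medians were -1.03 in the 25 genes with a match and -0.75 in the 14 without.

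Library totals were 55999673 to 72681943 counts in the PARPi experiment and 95523038 to 120716213 in the knockdown experiment, and the 47 genes had 120 to 63281 counts in any library. The smallest level these totals can show, 3 counts, was 0.0249 to 0.0536 CPM (counts per 1000000) on the unscaled totals. All other levels are in CPM with library totals scaled by TMM factors. *EVI1*, listed as *MECOM*, stood at 40.6 and 37.2 CPM with NTC at day 3 and day 6, at 13.2 and 17.5 with shEVI1-2531, and at 5.14 and 4.31 with shEVI1-2532. It stood at 48.8, 49.04 and 61.8 CPM with DMSO, at 44.6, 38.7 and 23.3 CPM with olaparib and at 45.04, 30.9 and 9.98 CPM with talazoparib at 12, 24 and 48 h. All 5 markers of the myeloid line (*PTPRC*, *CD33*, *MPO*, *CD34*, *MECOM*) were above 1 CPM in every library, while 5 bladder epithelium markers summed to at most 0.188 CPM, with *KRT5* at 0 throughout. Of the 47 genes, 30 are overlapped by another gene and 14 of those by one on the same strand, such as *PRIM1* by *NACA* and *CHAF1B* by *MORC3*, and the strand setting of the counting is not given in the sources used here. *PRIM2* has a near-identical partial copy, so its values are uncertain.

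Per kilobase of exon, the untreated library held most of the clamp *PCNA* (243 CPM per kb), followed by *MCM7* (158) and *MCM3* (103). The lowest of the 47 was *POLA2*, the second subunit of the polymerase alpha complex, at 2.49 CPM per kb. Among the helicase subunits, *MCM7* had the highest level per kb in all 16 libraries, at 2.60 to 4.34 times that of the lowest subunit, which was *MCM2* or *MCM4*.

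With PARPi, the replication genes stayed near the DMSO level at 12 h, were lower at 24 h and lower again at 48 h. Summed over the 47 genes, the level was 6542 CPM with DMSO, 6339.6 with olaparib and 6547 with talazoparib at 12 h. At 24 h the sums were 6309 CPM with DMSO, 4448 with olaparib and 3910.1 with talazoparib. At 48 h they were 5803 CPM with DMSO, 2902 with olaparib and 1565 with talazoparib, so that the talazoparib sum was 27.0% of the vehicle sum.

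Gene by gene, log2 ratios to DMSO at the same hour had medians of -0.09, -0.49 and -1.16 with olaparib at 12, 24 and 48 h, and -0.03, -0.69 and -2.49 with talazoparib. The median over all 17218 genes tested lay between -0.01 and 0.02 in these 6 pairs. A ratio under -1, a level more than 2-fold below DMSO, was seen with olaparib in 0, 0 and 31 of the 47 genes at 12, 24 and 48 h, while 1.77%, 2.17% and 7.72% of all genes reached it. With talazoparib it was seen in 0, 5 and 42 of the 47 genes, against 1.53%, 3.45% and 14.4% of all genes. At 48 h of talazoparib 30 of the 47 genes were under -2, which 4.01% of all genes were. These ratios rest on 1 library each and carry no test. At 24 h all 47 genes were below DMSO with both inhibitors, and at 48 h 46 of 47 were, the exception being *RPA2* with olaparib. Of all genes, 50.3% were below DMSO with olaparib and 48.9% with talazoparib at 24 h. At 48 h these shares were 50.3% and 50.2%. Talazoparib was below olaparib in 20, 41 and 46 of the 47 genes at 12, 24 and 48 h, and *POLE*, the catalytic subunit of polymerase epsilon, was the exception at 48 h. This order was not counted over all genes, so it cannot be read as particular to the replication genes.

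**Figure D1:**
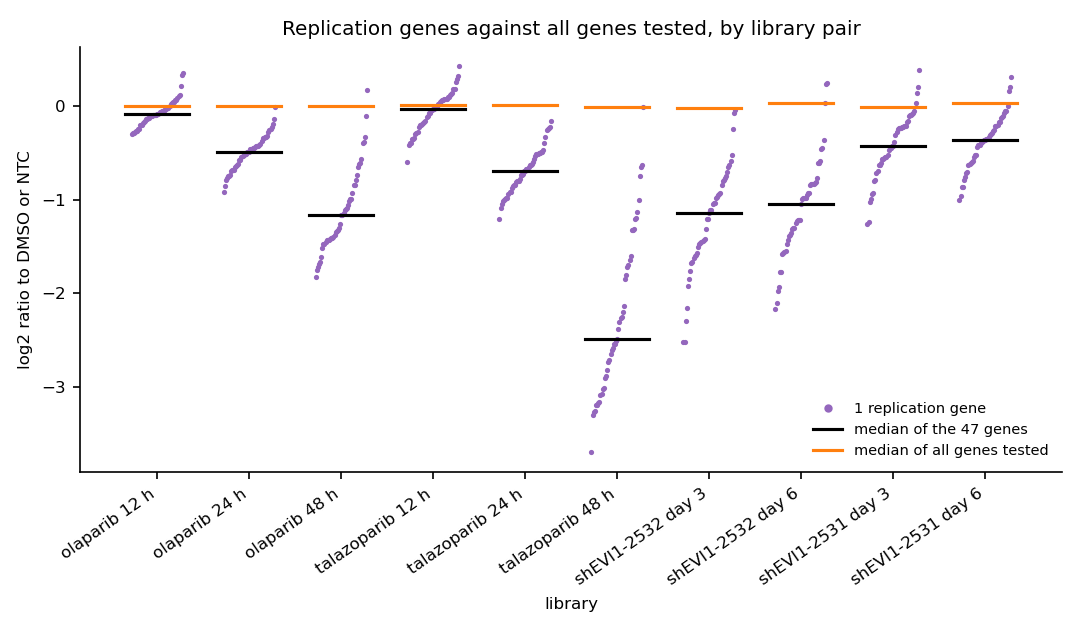
Each point is the log2 ratio (y axis) of 1 replication gene in 1 library (x axis) to DMSO of the same hour or NTC of the same day, sorted within the library, with the median of the 47 genes in black and of all genes tested in orange. The black line falls from -0.03 at 12 h to -2.49 at 48 h of talazoparib, while the orange line stays near 0 in every pair.

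At 12 h the ratios went both ways, with 35 of 47 genes below DMSO with olaparib and 27 with talazoparib, against 49.8% and 48.5% of all genes. The 95% interval of the ratio, an exact binomial interval that covers counting error only, was below 0 for 27 genes with olaparib and for 24 with talazoparib, and above 0 for 9 and 17. Such intervals were not computed for all genes, so these counts cannot be read as particular to the replication genes. The licensing factor *CDT1* had the highest ratio with both, 0.36 (95% interval 0.31 to 0.40) with olaparib and 0.42 (95% interval 0.38 to 0.47) with talazoparib. *PCNA* followed with olaparib at 0.34 (95% interval 0.31 to 0.36) and reached 0.32 (95% interval 0.30 to 0.34) with talazoparib. The lowest ratios were those of *TIPIN* with olaparib, -0.29, and of the polymerase epsilon subunit *POLE2* with talazoparib, -0.60. Against the mean of the 3 DMSO libraries instead, the medians at 12 h were 0.02 with olaparib and 0.10 with talazoparib, so the sign of both medians at 12 h depends on the DMSO library.

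With the vehicle alone the genes moved both ways. From 12 to 48 h of DMSO the median log2 ratio was -0.14, from *CLSPN* at -0.95 to *PRIM1* at 0.81. No replication gene was under -1 in that pair.

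**Figure D2:**
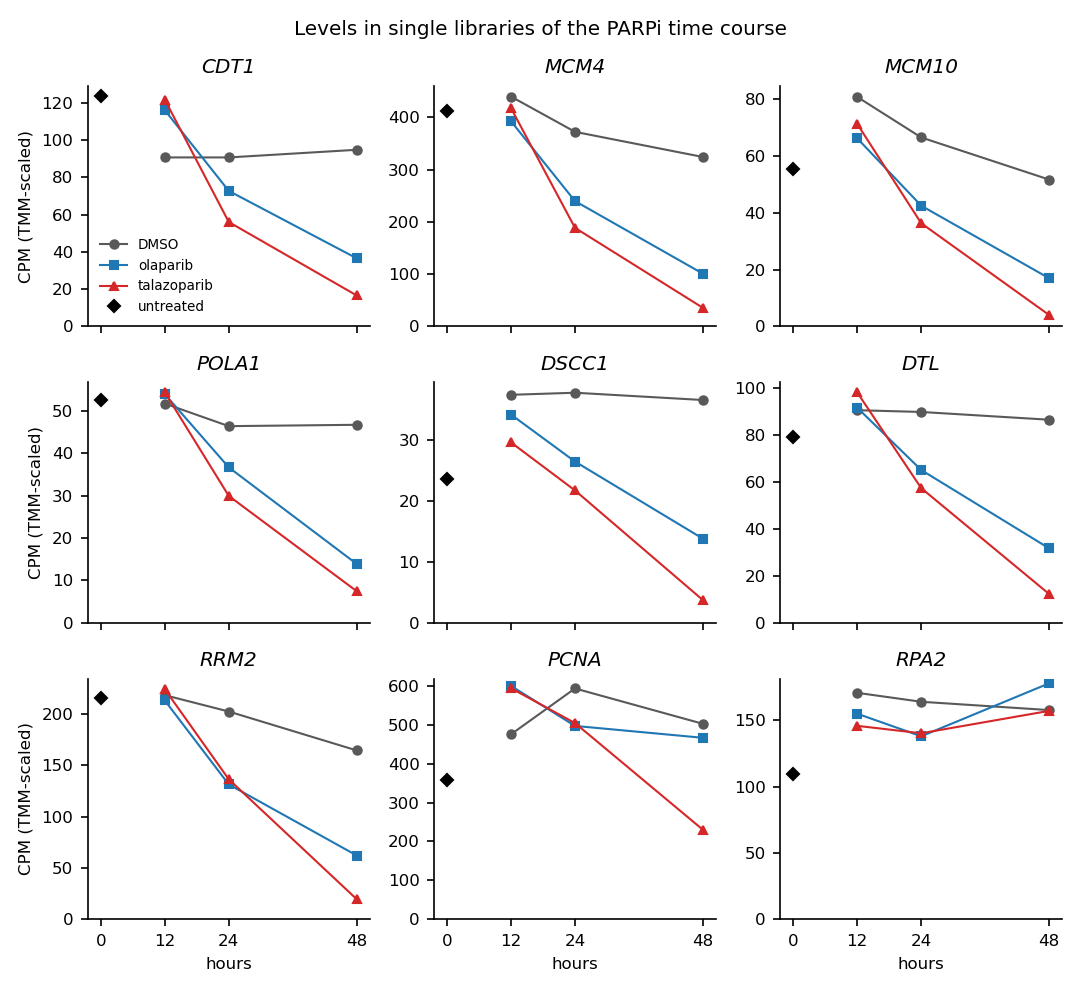
Levels (y axis, TMM-scaled CPM from 0) against hours (x axis) of 9 replication genes, with 1 point for each library of untreated cells, DMSO, olaparib and talazoparib. In *CDT1*, *MCM4*, *MCM10*, *POLA1*, *DSCC1*, *DTL* and *RRM2* both inhibitor lines fall away from DMSO after 12 h, *PCNA* falls clearly only with talazoparib at 48 h (229.8 against 503 CPM), and *RPA2* ends within 157 to 178 CPM in all 3 treatments.

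A model with 1 effect over all 3 hours gave no call. For the mean effect of both inhibitors, 0 of the 47 genes passed an adjusted p of 0.05 in edgeR, against 1.01% of all genes called lower. The smallest adjusted p of the 47 was 0.0527. At an unadjusted p under 0.05, 38 of the 47 and 2938 of all 17218 genes were lower. The median effect was a log2 change of -0.89, with all 47 below 0. DESeq2 called 28 of the 47 lower, edgeR without a filter on low counts called 40, and leaving out DMSO 12 h gave 43, leaving out talazoparib 12 h gave 32, and leaving out talazoparib 48 h gave 7. For olaparib alone 0 of 47 were called. Of all genes, 0% were called lower and 110 genes were called higher. At an unadjusted p under 0.05, 9 of the 47 and 1189 of all 17218 genes were lower. DESeq2 also called 0 for olaparib, whereas edgeR without the filter called 2 and without DMSO 12 h called 8. For talazoparib alone 0 of 47 were called. Of all genes, 0.999% were called lower and 516 genes were called higher. At an unadjusted p under 0.05, 37 of the 47 and 2921 of all 17218 genes were lower. DESeq2 called 32 for talazoparib, and edgeR called 43 without DMSO 12 h, 33 without talazoparib 12 h and 3 without DMSO 48 h. Between the inhibitors, 0 mean effects of the 47 genes differed by edgeR or by DESeq2, with 0 at an unadjusted p under 0.05 in edgeR. Over all 17218 genes edgeR also called 0, with a smallest adjusted p of 0.952. The lack of calls is thus not particular to the replication genes. The shares of all genes given here belong to the main setting. Counts under other settings therefore show how far the calls depend on the setting, not a result particular to these genes.

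The change of the effect with time was then tested as a slope, the change of the log2 ratio to DMSO for each doubling of the hours, averaged over both inhibitors. The slope was negative and called in 42 of the 47 genes, against 9.82% of all genes, and no replication gene had a positive call. The median slope was -0.88, against -0.01 over all genes. The genes not called were *GMNN*, *PRIM2*, *RPA1*, *RPA2* and *SLBP*. For olaparib alone 33 of 47 slopes were called lower, against 3.43% of all genes, and for talazoparib alone 44 of 47, against 10.9%. The talazoparib slope was the lower of both in 25 of the 47 genes by the test of the difference, against 1.36% of all genes. That difference holds for 1 µM talazoparib against 10 µM olaparib, and other doses were not analysed here. The model leaves 2 residual degrees of freedom, so its p-values rest largely on a spread that edgeR shares across genes. The very small ones do not measure replicate spread, and the slope counts are not directly comparable with those of the mean effect. Without the DMSO 48 h library the median slope was -0.55 and 0 genes were called, and with 1 common effect and slope for both inhibitors 10 were called.

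**Figure D3:**
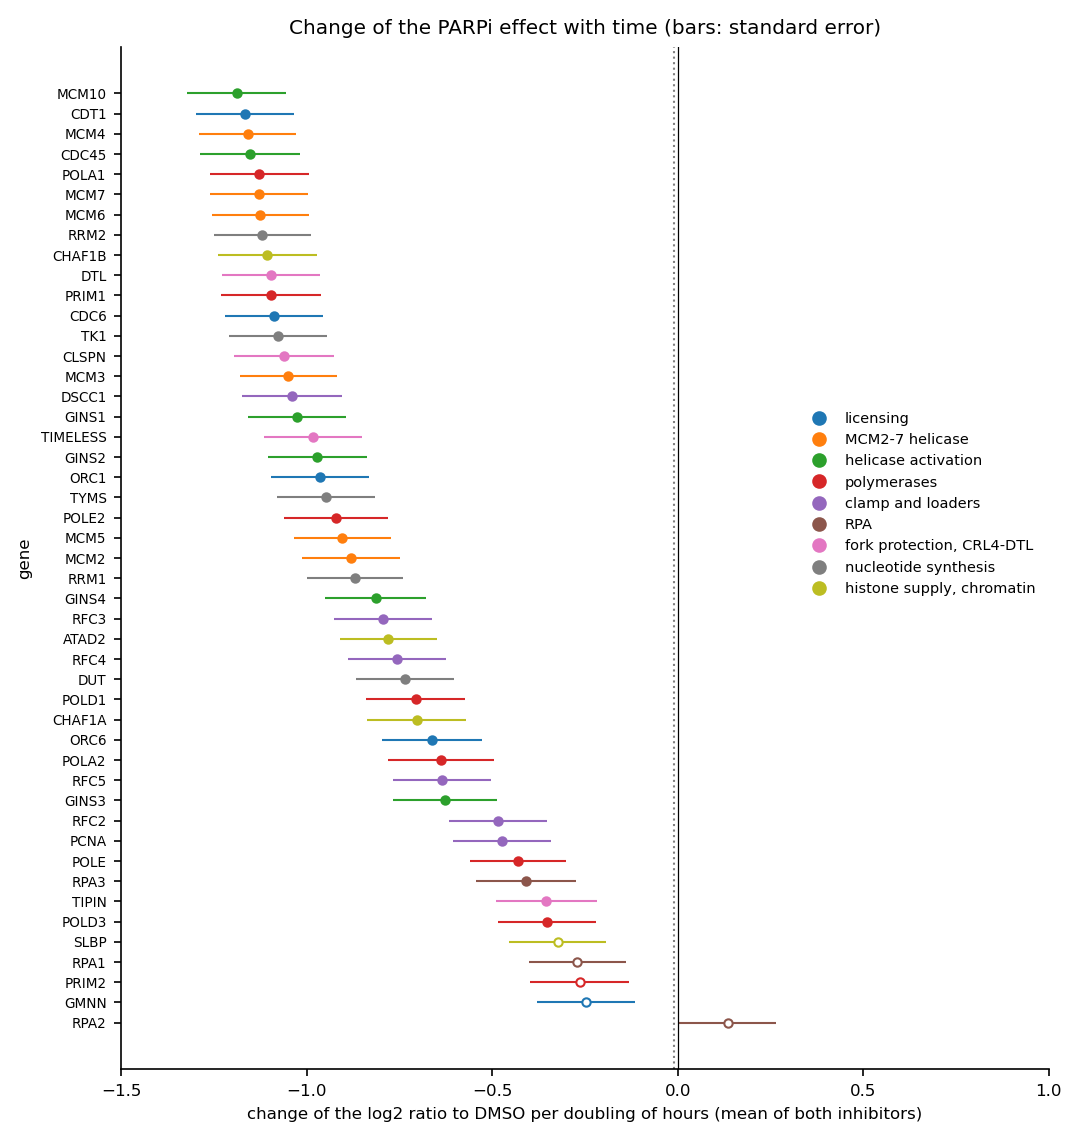
Change of the log2 ratio to DMSO per doubling of hours (x axis, mean of both inhibitors, bars: standard error) for each replication gene (y axis), colored by role, where filled points passed an adjusted p of 0.05, with a dotted line at the median of all genes tested. *MCM10* stands lowest at -1.19, and *GMNN*, *PRIM2*, *RPA1*, *RPA2* and *SLBP* are the open points nearest 0.

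With knockdown of *EVI1*, the replication genes were lower with shEVI1-2532 and less so with shEVI1-2531. Their summed level was 4679 and 4456 CPM with NTC at day 3 and day 6, 3815 and 3448 with shEVI1-2531, and 2345 and 2272 with shEVI1-2532. The median log2 ratio to NTC of the same day was -1.15 and -1.05 with shEVI1-2532 and -0.42 and -0.36 with shEVI1-2531. Under -1 were 29 and 24 of the 47 genes with shEVI1-2532 at day 3 and day 6, against 15.3% and 14.8% of all genes. With shEVI1-2531 these were 3 and 1, against 11.2% and 8.17% of all genes. The 3 were *MCM10*, *RFC4* and the checkpoint mediator *CLSPN*, and the 1 was *CLSPN*.

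In edgeR's test with both days, 44 of the 47 genes were called lower with shEVI1-2532, against 19.9% of all genes, and the genes not called were *PRIM2*, *RPA1* and *RPA2*. With shEVI1-2531, 18 of 47 were called lower, against 7.90% of all genes. Median log2 changes were -1.13 and -0.37. By the test of the difference, 36 of the 47 genes were lower with shEVI1-2532 than with shEVI1-2531, against 12.0% of all genes. With both shRNAs taken as 1 group, 0 of 47 were called, against 0.806% of all genes called lower. At an unadjusted p under 0.05, 20 of the 47 and 2046 of all 18606 genes were lower. Without the day in the model, 33 genes were called with shEVI1-2532, 0 with shEVI1-2531 and 8 in the difference. The shEVI1-2531 count was 7 without that shRNA's day 3 library and 10 without NTC day 6.

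**Figure D4:**
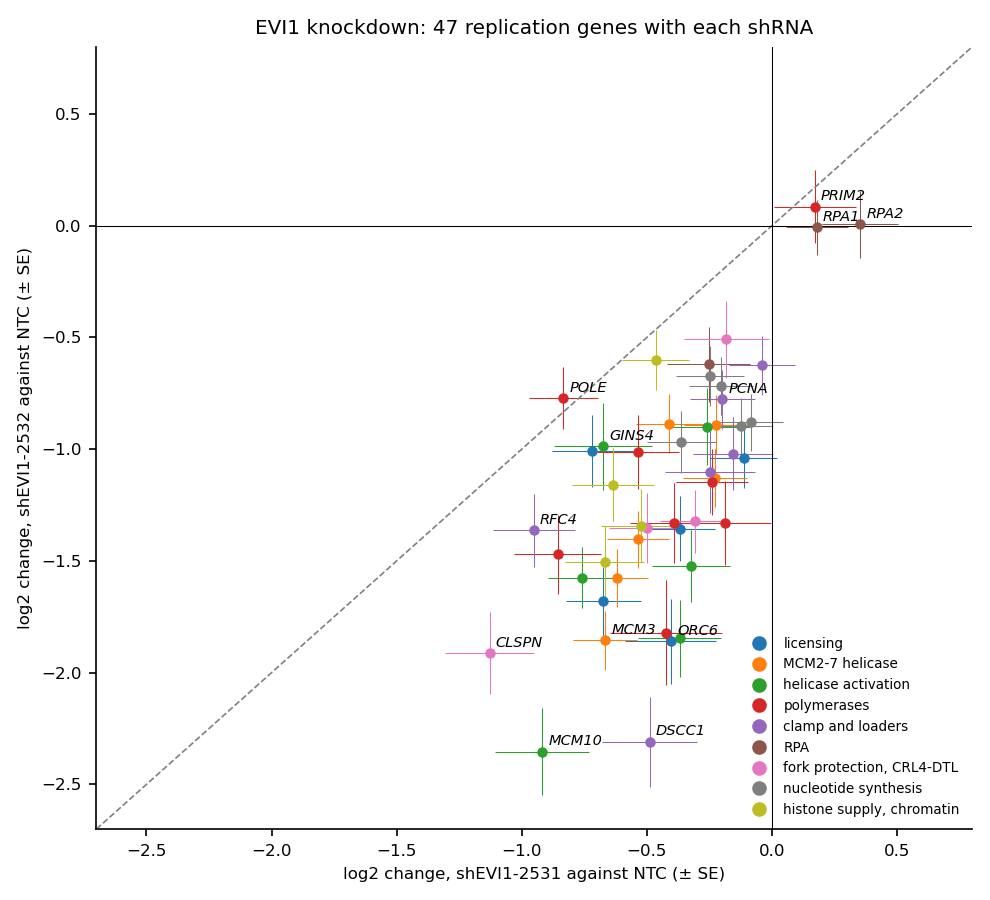
Log2 change against NTC with shEVI1-2531 (x axis) and shEVI1-2532 (y axis) for each of the 47 replication genes, with standard errors as bars, colors by role and a dashed line where both changes are equal. *MCM10* and *DSCC1* lie lowest with shEVI1-2532 (-2.35 and -2.31), *CLSPN* lies farthest left with shEVI1-2531 (-1.13), and *POLE* lies close to the line. *PRIM2*, *RPA1* and *RPA2* sit near 0 with shEVI1-2532, while *RPA2* lies farthest right with shEVI1-2531 (0.35).

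Genes that lost more with time under PARPi also tended to be lower with shEVI1-2532. Across the 47 genes, the slope and the shEVI1-2532 change had a Pearson r of 0.67 and a Spearman rho of 0.59. Over all 17021 genes tested in both experiments these were 0.57 and 0.60, and for shEVI1-2531 the values were 0.57 and 0.52 in the 47 genes and 0.48 and 0.48 over all. These are correlations across genes, which share libraries within each experiment and are not independent replicates.

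Among monocyte and macrophage markers, *LYZ*, *CD14* and *ITGAM* were higher with talazoparib at 48 h and with shEVI1-2532 on each day than in the matching control, while *CSF1R* went both ways. The summed level of 6 markers (*CD14*, *CSF1R*, *FCGR1A*, *CD163*, *LYZ*, *ITGAM*) was 679.6 CPM in untreated cells, 478 to 627 with DMSO, 516 to 2405 with olaparib and 610.2 to 4647 with talazoparib. It was 362 to 434 CPM with NTC, 1306 to 1350.4 with shEVI1-2531 and 5031 to 6311 with shEVI1-2532. The highest sums were carried by *LYZ*, which had 352 CPM with DMSO and 4088 with talazoparib at 48 h, and 154 CPM with NTC and 5605 with shEVI1-2532 at day 6. *CSF1R*, the M-CSF receptor, had 235 CPM with DMSO, 178 with olaparib and 185 with talazoparib at 48 h, and 227 with NTC, 179 with shEVI1-2531 and 191 with shEVI1-2532 at day 6. At day 3 it had 122 CPM with NTC and 217 with shEVI1-2532. *FCGR1A*, an Fc receptor, had 18.2 CPM with NTC, 17.5 with shEVI1-2531 and 106 with shEVI1-2532 at day 3. The number of these 6 markers at 1 CPM or more was 4 with NTC, 6 with shEVI1-2532 and 5 in each of the other libraries, and *CD163*, which marks macrophages, had 0 counts in 3 libraries and at most 2.10 CPM in any. The part of these markers in the replication results was not tested.

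Licensing genes fell with time in 4 of 5 cases. *CDT1* stood at 124 CPM in untreated cells, at 90.7, 90.7 and 94.8 CPM with DMSO at 12, 24 and 48 h, at 116, 72.8 and 36.5 CPM with olaparib and at 122, 56.1 and 16.6 CPM with talazoparib. The treated libraries were above DMSO at 12 h and below it from 24 h on. The slope was -1.17 (SE 0.13, adjusted p = 4.59e-16), the lowest of the role. For *GMNN*, the untreated library gave 72.7 CPM, DMSO 104, 109.8 and 106 CPM, olaparib 86.9, 77.9 and 80.01 CPM and talazoparib 81.7, 77.9 and 45.6 CPM at these hours. *GMNN*, which codes for the protein that keeps *CDT1* from relicensing origins, was lower than DMSO in all 6 treated libraries, but its slope of -0.25 (SE 0.13) did not pass the test (adjusted p = 0.186). *ORC1* and *ORC6*, subunits of the origin recognition complex, and the loader *CDC6* had slopes of -0.96, -0.66 and -1.09, all called. *CDC6* reached 8.94 CPM with talazoparib at 48 h against 75.4 with DMSO. The log2 ratios of the 5 genes at 48 h were -1.40 to -0.40 with olaparib and -3.08 to -1.21 with talazoparib.

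In the knockdown all 5 licensing genes were called lower with shEVI1-2532, and *CDC6* and *CDT1* also with shEVI1-2531. *CDT1* had 68.5 and 123 CPM with NTC at day 3 and day 6, 50.1 and 62.97 with shEVI1-2531, and 42.1 and 49.9 with shEVI1-2532. Both shRNAs lay below NTC on either day, yet NTC itself differed between the days. Its difference between the shRNAs, -0.29 (SE 0.16), did not pass the test (adjusted p = 0.215). *GMNN* had 111 and 63.2 CPM with NTC at day 3 and day 6, 98.7 and 60.96 with shEVI1-2531, and 50.2 and 33.2 with shEVI1-2532. The shEVI1-2532 libraries were the lowest on each day, and the change was -1.04 (SE 0.13, adjusted p = 7.72e-05). *ORC6* changed the most in this role, by -1.86 (SE 0.19, adjusted p = 1.35e-05).

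The *MCM2* to *MCM7* helicase core fell as a whole, with 6 of 6 slopes called and a median of -1.09. *MCM4* stood at 412 CPM in untreated cells, at 439.6, 372 and 324 CPM with DMSO at 12, 24 and 48 h, at 392, 239.6 and 101 CPM with olaparib and at 417, 188 and 35.3 CPM with talazoparib. Its slope of -1.16 (SE 0.13, adjusted p = 2.14e-16) was the lowest of the 6. For *MCM2*, the untreated library gave 264 CPM, DMSO 233, 196 and 164 CPM, olaparib 217, 125 and 60.6 CPM and talazoparib 232, 92.3 and 35.7 CPM at these hours. *MCM2* had the smallest slope of the core, -0.88 (SE 0.13, adjusted p = 1.36e-09), while its DMSO level also came down between 12 and 48 h. At 48 h the log2 ratios of the 6 subunits lay between -1.82 and -1.35 with olaparib and between -3.27 and -2.20 with talazoparib, where *MCM6* was the lowest. The summed level of the 6 went from 1851 CPM with DMSO to 604 with olaparib and 270.4 with talazoparib at that hour.

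With shEVI1-2532 all 6 subunits were called lower, from *MCM3* at -1.85 (SE 0.13, adjusted p = 1.05e-06) to *MCM5* at -0.89 (SE 0.13, adjusted p = 0.000242). With shEVI1-2531, *MCM3*, *MCM4* and *MCM6* were called. *MCM4* had 216 and 244 CPM with NTC at day 3 and day 6, 133 and 167 with shEVI1-2531, and 72.9 and 81.2 with shEVI1-2532. *MCM2* had 125 and 197 CPM with NTC at day 3 and day 6, 119 and 153 with shEVI1-2531, and 72.3 and 99.3 with shEVI1-2532. For both genes the libraries of shEVI1-2532 were below those of shEVI1-2531, which were below NTC of the same day. In the test of the difference between the shRNAs all 6 were called.

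Helicase activation held the gene with the lowest mean slope, *MCM10*, whose product is needed to start the loaded helicase. *MCM10* stood at 55.3 CPM in untreated cells, at 80.7, 66.5 and 51.6 CPM with DMSO at 12, 24 and 48 h, at 66.2, 42.5 and 16.9 CPM with olaparib and at 71.2, 36.3 and 3.97 CPM with talazoparib. The last of these values is a log2 ratio of -3.70 (95% interval -3.92 to -3.49) to DMSO, the lowest ratio of any replication gene in any of the 10 pairs. The slope was -1.19 (SE 0.13, adjusted p = 2e-16), and it was -0.66 for olaparib and -1.71 for talazoparib. Their difference of -1.05 (SE 0.17, adjusted p = 3.56e-07) was the largest among the 47 genes. For *GINS3*, the untreated library gave 24.1 CPM, DMSO 22.2, 19.3 and 16.9 CPM, olaparib 19.7, 13.3 and 7.88 CPM and talazoparib 20.7, 11.1 and 5.20 CPM at these hours. *GINS3*, a subunit of the GINS ring that binds the MCM motor, was at the lower end of expression and had the smallest slope of the role, -0.63 (SE 0.14, adjusted p = 0.00012). *CDC45*, *GINS1*, *GINS2* and *GINS4* were called as well, with slopes of -1.15, -1.03, -0.97 and -0.81, so that 6 of 6 fell. *CDC45*, which joins the GINS ring and the MCM ring into the active helicase, went from 58.1 CPM with DMSO at 48 h to 20.3 with olaparib and 6.47 with talazoparib. At that hour the ratios of the 6 genes were -1.61 to -0.99 with olaparib and -3.70 to -1.70 with talazoparib.

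With shEVI1-2532 the same 6 genes were lower, from -2.35 (*MCM10*) to -0.90 (*GINS3*), and *MCM10*, *GINS2* and *GINS4* were also lower with shEVI1-2531. *MCM10* had 40.7 and 35.01 CPM with NTC at day 3 and day 6, 17.2 and 23.2 with shEVI1-2531, and 7.09 and 7.80 with shEVI1-2532, the largest change of the 47 genes at -2.35 (SE 0.20, adjusted p = 3.02e-06). *GINS3* had 16.02 and 15.7 CPM with NTC at day 3 and day 6, 13.8 and 12.7 with shEVI1-2531, and 8.16 and 8.86 with shEVI1-2532. On each day NTC was the highest and shEVI1-2532 the lowest for both genes.

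Of the 8 polymerase genes 7 had a called negative slope. *POLA1* stood at 52.6 CPM in untreated cells, at 51.8, 46.4 and 46.8 CPM with DMSO at 12, 24 and 48 h, at 54.00, 36.7 and 13.9 CPM with olaparib and at 54.4, 29.96 and 7.44 CPM with talazoparib. *POLA1*, the catalytic subunit of the polymerase that starts each strand, had the lowest slope at -1.13 (SE 0.13, adjusted p = 5.64e-15) while its slope difference between the inhibitors of -0.45 (SE 0.16) did not pass the test (adjusted p = 0.222). For *PRIM2*, the untreated library gave 32.99 CPM, DMSO 40.2, 46.6 and 50.8 CPM, olaparib 41.2, 38.5 and 38.8 CPM and talazoparib 37.1, 38.9 and 30.3 CPM at these hours. *PRIM2*, the large subunit of the primase, had a slope of -0.26 (SE 0.13) that did not pass (adjusted p = 0.156). Its partner *PRIM1*, the catalytic primase subunit, had -1.10 (SE 0.13, adjusted p = 6.62e-14). The subunits of polymerase epsilon had slopes of -0.92 for *POLE2* and -0.43 for the catalytic *POLE*, which stood at 168 CPM with DMSO, 101 with olaparib and 109 with talazoparib at 48 h. *POLD1* and *POLD3*, subunits of polymerase delta, had slopes of -0.71 and -0.35, and *POLA2* had -0.64. Ratios of the 8 genes at 48 h spread more than in the helicase core, -1.75 to -0.39 with olaparib and -3.20 to -0.63 with talazoparib.

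With shEVI1-2532 again 7 of 8 were lower, led by *POLE2* at -1.82 (SE 0.23, adjusted p = 7.48e-05). *POLA1* had 25.1 and 26.7 CPM with NTC at day 3 and day 6, 16.2 and 19.7 with shEVI1-2531, and 12.2 and 13.5 with shEVI1-2532. *PRIM2* had 31.5 and 19.4 CPM with NTC at day 3 and day 6, 34.7 and 22.4 with shEVI1-2531, and 29.9 and 22.97 with shEVI1-2532. *PRIM2* with either shRNA was thus close to NTC of the same day, and its changes were 0.09 (SE 0.16) and 0.17 (SE 0.16). *POLA1*, *PRIM1* and *POLE* were called with shEVI1-2531. *POLE* was the 1 replication gene with a difference between the shRNAs above 0, 0.06 (SE 0.14, adjusted p = 0.775).

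The clamp and its loaders all fell with time, 6 of 6, but by less than the helicase core in the median (-0.70). *DSCC1* stood at 23.6 CPM in untreated cells, at 37.3, 37.7 and 36.5 CPM with DMSO at 12, 24 and 48 h, at 34.1, 26.4 and 13.8 CPM with olaparib and at 29.5, 21.7 and 3.70 CPM with talazoparib. *DSCC1*, a subunit of the alternative clamp loader with *CHTF18*, had the lowest slope of the role, -1.04 (SE 0.14, adjusted p = 1.5e-12). For *PCNA*, the untreated library gave 357 CPM, DMSO 476, 594 and 503 CPM, olaparib 600.1, 497 and 467 CPM and talazoparib 594, 505 and 229.8 CPM at these hours. *PCNA*, the sliding clamp, was above DMSO in both treated libraries at 12 h, below it at 24 h and much lower only with talazoparib at 48 h. Its slope of -0.47 (SE 0.13, adjusted p = 0.00341) averaged -0.72 with talazoparib (adjusted p = 5.01e-05) and -0.22 with olaparib (adjusted p = 0.451), whose difference did not pass the test (adjusted p = 0.0568). The subunits *RFC2* to *RFC5* of the main loader had slopes from -0.79 (*RFC3*) to -0.48 (*RFC2*). With talazoparib at 48 h the 6 ratios were -3.30 to -1.13.

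With shEVI1-2532 all 6 were lower. *DSCC1* had 25.7 and 16.5 CPM with NTC at day 3 and day 6, 19.7 and 10.8 with shEVI1-2531, and 4.46 and 3.82 with shEVI1-2532. Its change of -2.31 (SE 0.20, adjusted p = 4.23e-06) was next to that of *MCM10*, and its difference between the shRNAs, -1.82 (SE 0.20, adjusted p = 9.23e-05), was the largest of the 47 genes. *PCNA* had 478 and 261 CPM with NTC at day 3 and day 6, 393 and 242 with shEVI1-2531, and 248 and 171 with shEVI1-2532, a change of -0.78 (SE 0.13, adjusted p = 0.000582) with shEVI1-2532. With shEVI1-2531 only *RFC4* was called in this role, at -0.95 (SE 0.16, adjusted p = 0.00189).

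RPA, which covers single-stranded DNA, changed the least. *RPA3* stood at 28.4 CPM in untreated cells, at 26.7, 37.3 and 46.5 CPM with DMSO at 12, 24 and 48 h, at 24.8, 28.2 and 30.5 CPM with olaparib and at 23.7, 26.3 and 18.8 CPM with talazoparib. *RPA3*, the smallest subunit, had the 1 called slope, -0.41 (SE 0.13, adjusted p = 0.0159). For *RPA2*, the untreated library gave 109 CPM, DMSO 171, 164 and 158 CPM, olaparib 155, 138 and 178 CPM and talazoparib 146, 140.2 and 157 CPM at these hours. *RPA2* had the only positive slope of the 47 genes, 0.13 (SE 0.13), which did not pass the test (adjusted p = 0.531). For *RPA1* it was -0.27 (SE 0.13, adjusted p = 0.134). *RPA3* had 49.8 and 24.8 CPM with NTC at day 3 and day 6, 42.96 and 20.2 with shEVI1-2531, and 28.7 and 18.1 with shEVI1-2532. It was lower with shEVI1-2532 by a log2 change of -0.62 (SE 0.17, adjusted p = 0.0106). *RPA2* had 157 and 106 CPM with NTC at day 3 and day 6, 205 and 132 with shEVI1-2531, and 133 and 125 with shEVI1-2532. The highest *RPA2* level on each day was thus with shEVI1-2531, and that change of 0.35 (SE 0.15) had an adjusted p of 0.133. With shEVI1-2532 the changes of *RPA1* and *RPA2* were -0.01 (SE 0.12) and 0.01 (SE 0.15), and the sign of the latter depended on the scaling.

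Fork protection and replication-coupled destruction showed 4 of 4 called slopes. *DTL* stood at 79.1 CPM in untreated cells, at 90.5, 89.8 and 86.5 CPM with DMSO at 12, 24 and 48 h, at 91.6, 65.04 and 31.7 CPM with olaparib and at 98.1, 57.3 and 12.2 CPM with talazoparib. *DTL*, the receptor through which the CRL4 ubiquitin ligase destroys *CDT1* at clamps on DNA, had the lowest slope of the role at -1.10 (SE 0.13, adjusted p = 1.79e-14). For *TIPIN*, the untreated library gave 21.8 CPM, DMSO 25.3, 25.3 and 24.8 CPM, olaparib 20.6, 18.8 and 14.4 CPM and talazoparib 19.2, 18.2 and 9.86 CPM at these hours. *TIPIN* had a slope of -0.35 (SE 0.14, adjusted p = 0.0468), whereas its partner *TIMELESS* had -0.98 (SE 0.13, adjusted p = 8.95e-12) and *CLSPN* had -1.06 (SE 0.13, adjusted p = 3.85e-13). All 4 were lower with shEVI1-2532 too. *DTL* had 58.2 and 50.03 CPM with NTC at day 3 and day 6, 38.04 and 38.5 with shEVI1-2531, and 20.9 and 21.4 with shEVI1-2532. *TIPIN* had 21.6 and 13.9 CPM with NTC at day 3 and day 6, 18.4 and 12.7 with shEVI1-2531, and 13.8 and 10.8 with shEVI1-2532. Both genes were lowest with shEVI1-2532 on each day. *CLSPN* had the largest change of any replication gene with shEVI1-2531, -1.13 (SE 0.18, adjusted p = 0.00118), and *DTL* was called as well at -0.50.

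Nucleotide synthesis genes fell in 5 of 5 cases, and here the inhibitors differed in all 5. *RRM2* stood at 216 CPM in untreated cells, at 218, 202 and 164 CPM with DMSO at 12, 24 and 48 h, at 213, 131 and 61.98 CPM with olaparib and at 224, 136 and 19.3 CPM with talazoparib. *RRM2*, the small subunit that ribonucleotide reductase uses in S phase, had slopes of -0.69 with olaparib and -1.55 with talazoparib, a difference of -0.87 (SE 0.16, adjusted p = 1.96e-05). For *DUT*, the untreated library gave 148 CPM, DMSO 139, 199 and 187 CPM, olaparib 127, 111 and 88.2 CPM and talazoparib 106, 98.7 and 35.9 CPM at these hours. *DUT*, which removes dUTP, had the smallest slope of the role, -0.74 (SE 0.13, adjusted p = 6.86e-07). The large subunit *RRM1*, thymidylate synthase *TYMS* and thymidine kinase *TK1* had slopes of -0.87, -0.95 and -1.08. *TK1* went from 117 CPM with DMSO to 47.4 with olaparib and 17.6 with talazoparib at 48 h, and *TYMS* from 118 to 61.9 and 19.7 CPM. With shEVI1-2532 all 5 were lower, between -0.97 (*DUT*) and -0.67 (*TK1*), and with shEVI1-2531 0 of 5 were called. *RRM2* had 143 and 118 CPM with NTC at day 3 and day 6, 135 and 105 with shEVI1-2531, and 73.7 and 65.8 with shEVI1-2532. *DUT* had 166 and 106 CPM with NTC at day 3 and day 6, 133 and 79.2 with shEVI1-2531, and 76.7 and 59.2 with shEVI1-2532. For both genes shEVI1-2531 lay between NTC and shEVI1-2532 on each day.

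Histone supply and chromatin genes had 3 of 4 called slopes. *CHAF1B* stood at 54.3 CPM in untreated cells, at 55.8, 45.2 and 43.02 CPM with DMSO at 12, 24 and 48 h, at 53.7, 33.9 and 15.5 CPM with olaparib and at 61.4, 27.3 and 5.74 CPM with talazoparib. *CHAF1B*, a subunit of the chaperone CAF-1 that places histones behind the fork, had a slope of -1.11 (SE 0.13, adjusted p = 2.68e-14). For *SLBP*, the untreated library gave 106 CPM, DMSO 135, 145 and 136 CPM, olaparib 115, 101 and 88.9 CPM and talazoparib 112, 101 and 59.6 CPM at these hours. *SLBP*, which binds the stem-loop of replication-dependent histone transcripts, had a slope of -0.32 (SE 0.13) that did not pass (adjusted p = 0.0639). *CHAF1A* and the bromodomain ATPase *ATAD2* had slopes of -0.70 and -0.78. This was the 1 role with every gene called lower with both shRNAs. *ATAD2* had 77.98 and 61.3 CPM with NTC at day 3 and day 6, 40.9 and 48.6 with shEVI1-2531, and 31.4 and 30.9 with shEVI1-2532, so that it was lower on each day with either shRNA. *CHAF1B* had 33.5 and 39.7 CPM with NTC at day 3 and day 6, 21.6 and 24.4 with shEVI1-2531, and 12.1 and 13.6 with shEVI1-2532. *SLBP* had 132 and 87.1 CPM with NTC at day 3 and day 6, 88.7 and 68.3 with shEVI1-2531, and 78.6 and 63.5 with shEVI1-2532. Changes with shEVI1-2531 ran from -0.67 (*CHAF1B*) to -0.46 (*SLBP*).

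**Figure D5:**
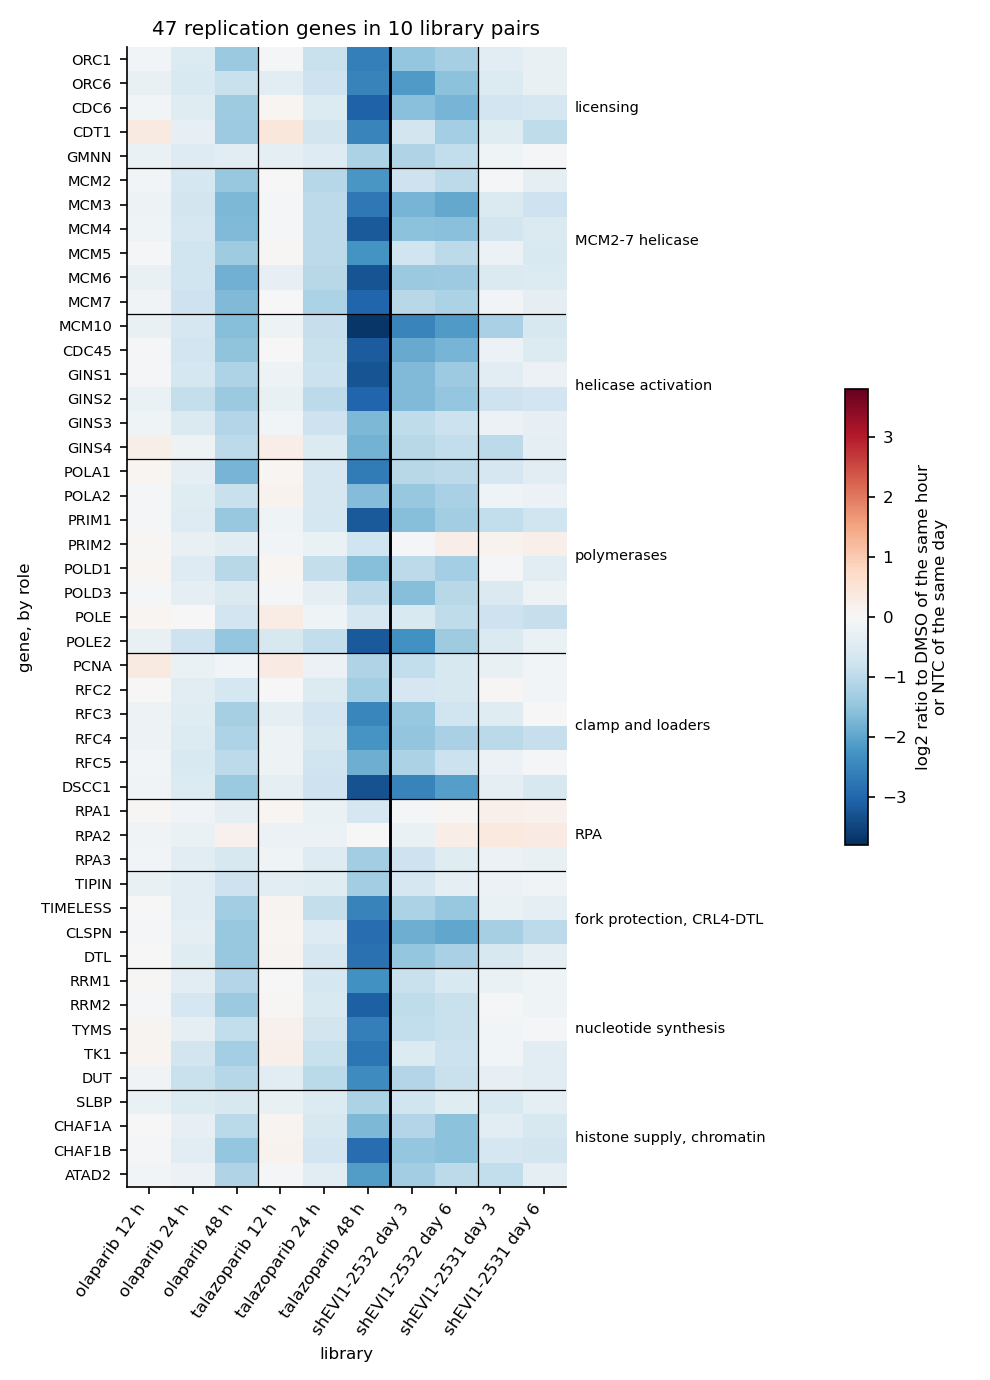
Log2 ratio to DMSO of the same hour or NTC of the same day (color, blue lower, red higher) for the 47 replication genes (rows, by role) in 10 libraries (columns). The darkest column is talazoparib at 48 h (median -2.49), the *MCM2* to *MCM7* rows are dark together, and *RPA1*, *RPA2* and *PRIM2* stay pale.

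A further 46 genes of DNA replication outside the 47 were read for comparison. In the slope test 27 of these 46 were called lower and 4 higher, with a median of -0.56. Of all 17218 genes tested, 9.82% were called lower and 1721 genes higher. The 3 with the smallest p among the lower ones were the topoisomerase *TOP2A* (-1.23, SE 0.13), the checkpoint kinase *CHEK1* (-1.10, SE 0.13) and the origin firing factor *TICRR* (-1.06, SE 0.14). *TOP2A* went from 482 CPM with DMSO to 172 with olaparib and 35.3 with talazoparib at 48 h. The 3 with the smallest p among those that rose were *SAMHD1*, which degrades dNTPs (0.75, SE 0.13), and the accessory polymerase subunits *POLD4* (0.69, SE 0.14) and *POLE4* (0.43, SE 0.13).

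*SAMHD1* had 55.9, 52.3 and 65.4 CPM with DMSO, 68.8, 103 and 226 CPM with olaparib and 75.8, 141 and 255 CPM with talazoparib at 12, 24 and 48 h. It was thus above DMSO in all 6 treated libraries, with a mean effect of 1.11 (SE 0.25, adjusted p = 0.0496). With knockdown it had 31.2 and 38.9 CPM with NTC at day 3 and day 6, 62.6 and 82.8 with shEVI1-2531, and 61.3 and 65.6 with shEVI1-2532, and it was called higher with both shRNAs. *RRM2B*, the small subunit of ribonucleotide reductase used outside S phase, had 61.7, 61.7 and 61.1 CPM with DMSO, 81.5, 98.9 and 105 CPM with olaparib and 71.9, 101 and 86.4 CPM with talazoparib. Its mean effect was 0.55 (SE 0.11, adjusted p = 0.043), whereas its slope of 0.16 (SE 0.13) and its shEVI1-2532 change of 0.27 (SE 0.17) did not pass the test. For the mean effect, 3 of the 46 genes were called lower (*ORC5*, *DBF4* and *POLE3*) and 2 higher (*SAMHD1* and *RRM2B*). Of all 17218 genes tested, 1.01% were called lower and 544 genes higher. With shEVI1-2532, 32 of the 46 genes were called lower and 3 higher (*POLD4*, *SAMHD1* and the mitochondrial thymidine kinase *TK2*), and with shEVI1-2531 these counts were 11 and 1. Of all 18606 genes tested, 19.9% were called lower and 3942 genes higher with shEVI1-2532. With shEVI1-2531 these were 7.90% and 1765 genes.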

How the data were processed

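RNA-Seq of 16 MUTZ-3 libraries was analysed, 1 per condition, grouped by their labels. Raw counts for 60623 genes and TPM were deposited by the authors, made with STAR, Picard and featureCounts on hg38 (GRCh38) according to the submitters' processing notes. The deposited TPM equal the counts over whole gene spans and served only as a check. Testing required 10 counts or more in 3 of 9 PARPi libraries (17218 genes) or in 2 of 6 knockdown libraries (18606 genes) and used edgeR 4.0.16 in R 4.3.3 (TMM, glmQLFit and glmQLFTest, Benjamini-Hochberg, 0.05). Models held the time point or day as a factor and 1 coefficient per inhibitor or shRNA (4 and 2 residual degrees of freedom), and the slope model a slope on log2 hours for each inhibitor (2). The untreated library entered no fit. With 1 library per condition, p-values measure departures between time points or days, which may be technical. In the slope fit these are departures from a straight line on log2 hours, judged by a spread largely shared across genes. Intervals of single ratios are 95% Clopper-Pearson intervals and, like the floor of 3 counts, cover counting error only. Levels per kilobase used GENCODE 29 exons. Genes given in every library are the first and last of each role by slope. The genes, lists and tests were chosen with earlier results of these data known, and the slopes of single inhibitors and their difference were added after seeing the data. Alternatives were DESeq2 1.42.0, other scalings, filters, thresholds and models, and each library left out. A marker gene of the monocyte list is not reported here. The code was tested on simulated data.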

Additional observations from a re-analysis of the deposited data

Results flagged for a closer look

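The PARPi effect differed between the time points in 42 of the 47 replication genes, by the slope on log2 hours averaged over both inhibitors, where 9.82% of all genes were called lower. The talazoparib effect fell more with time than the olaparib effect in 25 of the 47, by the test of the difference of the slopes at unequal doses, against 1.36% of all genes. The change was lower with shEVI1-2532 than with shEVI1-2531 in 36 of the 47, by the test of that difference, against 12.0% of all genes.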

How the results depend on the processing

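Every comparison rests on 1 library per condition, so no test separates replicate cultures from time points or days, and depth did not limit these genes, which had at least 120 counts in every library. The time point or day in the models matched each treated library with its control, and dropping the day is one of the alternatives. No block by replicate number was fitted, since every library is replicate 1 of its condition. Counts of replication genes under the alternatives below are given without the share of all genes called in the same setting. They describe the dependence on processing only.

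For the mean PARPi effect 0 replication genes were called, but 28 with DESeq2, 40 without a filter on low counts, 42 without the 12 h libraries and 11 without the 48 h libraries, and leaving out libraries gave 0 to 43. For olaparib the counts were 2 without the filter, 4 without the 12 h libraries and 0 to 8 leaving out libraries, and for talazoparib 32 with DESeq2, 40 without the filter and 0 to 43 leaving out libraries. The slope count of 42 became 10 with 1 common slope and 0 to 43 leaving out single libraries, of which only DMSO 48 h gave 0, where no vehicle partner is left for the treated 48 h libraries. The other alternatives gave 33 to 44. This range includes the slopes of olaparib alone (33) and talazoparib alone (44), which are other contrasts of the same fit and not other processing. Between the inhibitors, 0 mean effects and 25 slopes differed. Over all 17218 genes, 0 mean effects differed and 1.36% had a lower slope with talazoparib.

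With shEVI1-2532 the count of 44 became 0 with both shRNAs as 1 group and 33 without the day, and leaving out libraries gave 42 to 44. With shEVI1-2531 the count of 18 became 10 at an adjusted p under 0.01 and 0 without the day, and leaving out libraries gave 7 to 18. Without shEVI1-2531 day 6, 13 were lower and *RPA2* was higher. The difference of 36 became 8 without the day, and leaving out libraries gave 27 to 37.

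Scaling to the library total only shifted the median of all genes by -0.19 and -0.27 at 48 h of olaparib and talazoparib, by -0.26 and -0.35 with shEVI1-2532 at day 3 and day 6, and by -0.17 and -0.17 with shEVI1-2531. The medians of the replication genes were then -1.35, -2.75, -1.40, -1.40, -0.59 and -0.53 in these pairs. Upper quartile scaling gave -0.42 with shEVI1-2531 at day 6. Against the mean of the DMSO libraries, the olaparib medians were 0.0166 at 12 h and -1.27 at 48 h, and the talazoparib median at 12 h was 0.104.

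Signs that turned were those of changes near 0 that were not called. With shEVI1-2532, *RPA2* gave -0.000428 with DESeq2, -0.000923 with upper quartile scaling, -0.298 with library totals, -0.0229 without the filter, -0.0314 with at least 1 CPM in every library, -0.0282 without the day and -0.0028 in the 4 libraries of NTC and shEVI1-2532. *PRIM2* gave -0.217 with library totals, and *RPA1* 0.0898 with both shRNAs as 1 group. Leaving out single libraries gave -0.255 to 0.263 for *RPA2*, -0.0532 to 0.234 for *PRIM2* and -0.0526 to 0.0496 for *RPA1* with shEVI1-2532, -0.12 to 0.0605 for *RFC2* and -0.489 to 0.0082 for *RFC3* with shEVI1-2531, and -0.0542 to 0.324 for the *RPA2* slope. The cause was not tested.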

Other observations

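Between day 3 and day 6 of NTC the replication genes did not move together. The median log2 ratio of day 6 to day 3 was -0.22, from *POLE2* at -1.24 to *CDT1* at 0.84. *CDT1* had 68.5 CPM at day 3 and 122.9 at day 6, *POLE* 112 and 182, and *POLD1* 55.6 and 90.8, whereas *PCNA* had 478 and 261, and *GMNN* 111 and 63.2. The MCM2 to MCM7 core had a median ratio of 0.36, and the clamp and its loaders had -0.74. With 1 NTC library per day these ratios carry no test. The median log2 ratio of DMSO at 12 h to untreated cells was 0.09, from *CDT1* at -0.45 to *GINS1* at 0.70.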
